A study of Homo sapiens with 8 samples.

Results

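Mediator is the large complex that carries signals from DNA-bound transcription factors to RNA polymerase II. Its head and middle modules contact the polymerase, its tail meets most activators, MED14 is the backbone that ties these modules together, and a separate kinase module (MED12, MED13, cyclin C and CDK8, with the vertebrate paralogs MED12L, MED13L and CDK19) docks reversibly and can keep the polymerase away. In a pooled knockout screen, single guide RNAs (sgRNAs) that break a gene needed for growth become rarer among the cells that survive, so that the count of an sgRNA in genomic DNA stands for the number of cells that carry it. The genes considered here were chosen by their symbols: every gene of the library named MED with a number, with or without a final L, plus CDK8, CDK19 and CCNC. This gave 33 of 18913 genes, with 6 sgRNAs each and 198 sgRNAs in all, of which 195 averaged 10 or more raw reads per library and were tested. The 3 left out were 1 each of MED9, MED26 and MED27, so that every one of the 33 genes kept 5 or 6 sgRNAs. Grouped by place in the complex, 7 genes belong to the head, 9 to the middle, 1 is the scaffold (MED14), 9 belong to the tail and 7 to the kinase module.

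The cells were MB157R, a triple-negative breast cancer line selected for growth in a γ-secretase inhibitor (GSI), which blocks the cleavage that activates NOTCH receptors, and they stably expressed Cas9. All libraries came from 1 pool of cells transduced with the human GeCKOv2 library and selected with puromycin. The GSI group was 3 cultures kept in 10 µM LY3039478 to day 14, the DMSO group was 3 cultures kept in the solvent to day 14, and T0 was 2 aliquots of the pool frozen before treatment. The replicates are thus cultures or aliquots of 1 transduced pool, and p-values measure the spread between them, not between independent transductions. These libraries hold sgRNA counts from DNA and no RNA, so that neither the expression of Mediator genes nor the cell type could be checked in them, and the cutting of any sgRNA was not measured.

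Libraries held 12.1 to 18.2 M assigned reads, with a median count per sgRNA of 66 to 112. The T0 aliquots differed from each other more than the cultures did. Spearman's rho over the Mediator sgRNAs was 0.38 between the T0 aliquots, against 0.67 to 0.71 among GSI cultures and 0.58 to 0.65 among DMSO cultures. The pair of GSI replicate 1 and DMSO replicate 1 reached 0.77. An sgRNA of VPS33B took 38.8% of the reads of GSI replicate 1, and the median count was 66 there. Of the 198 Mediator sgRNAs, 3 to 6 stood at a count of 0 in each GSI library, 8 to 14 in each DMSO library, and 11 and 21 in the T0 libraries. Counts come from PCR products without molecular identifiers, so that reads are not independent molecules, and a comparison with T0 rests on 5 libraries, 2 of them T0.

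As a group, Mediator sgRNAs were lower after 14 days of culture than at T0, with either treatment. The shift lay in the head, the middle, the scaffold (1 gene) and the tail, while the kinase module stayed near the level of all genes. This rests on counts and medians set beside those of all sgRNAs, and no test of the group was made. In GSI against T0 the gap of the tail to all sgRNAs was only -0.05 without T0 replicate 2. The median of the scaffold was 0.03 there without T0 replicate 1. In DMSO against T0, the median log2 fold change (edgeR) of the 195 sgRNAs was -0.49, beside -0.002 over all 109329 gene-targeting sgRNAs, and 70 of them (35.9%) lay under -1, beside 17.8% of all. Below 0 lay 125 of the sgRNAs (64.1%, beside 50.1% of all) and the medians of 24 genes (72.7%, beside 49.6% of all genes), and 8 genes had a median under -1 (24.2%, beside 4.84%). In GSI against T0, the median was -0.45, beside -0.02 over all, and 66 sgRNAs (33.8%) lay under -1, beside 16.1% of all. Here too 125 sgRNAs (64.1%, beside 51% of all) and 24 gene medians (72.7%, beside 51.3%) lay below 0, and 6 medians lay under -1 (18.2%, beside 3.5%). These 2 comparisons share the T0 libraries and are therefore given side by side and not as support for each other. Single sgRNAs scattered widely, so that 33 of the 195 lay above 1 in GSI against T0, which is 16.9% beside 18.2% of all sgRNAs, and 31 of the 195 lay above 1 in DMSO against T0, which is 15.9% beside 19.5%. Tested one at a time by edgeR, 21 Mediator sgRNAs had an unadjusted p under 0.05 on the low side (10.8%, beside 3.6% of all) and 12 on the high side (6.15%, beside 4.21%) in DMSO against T0. The counts in GSI against T0 were 20 (10.3%, beside 4.11%) and 11 (5.64%, beside 4.72%).

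**Figure D1:**
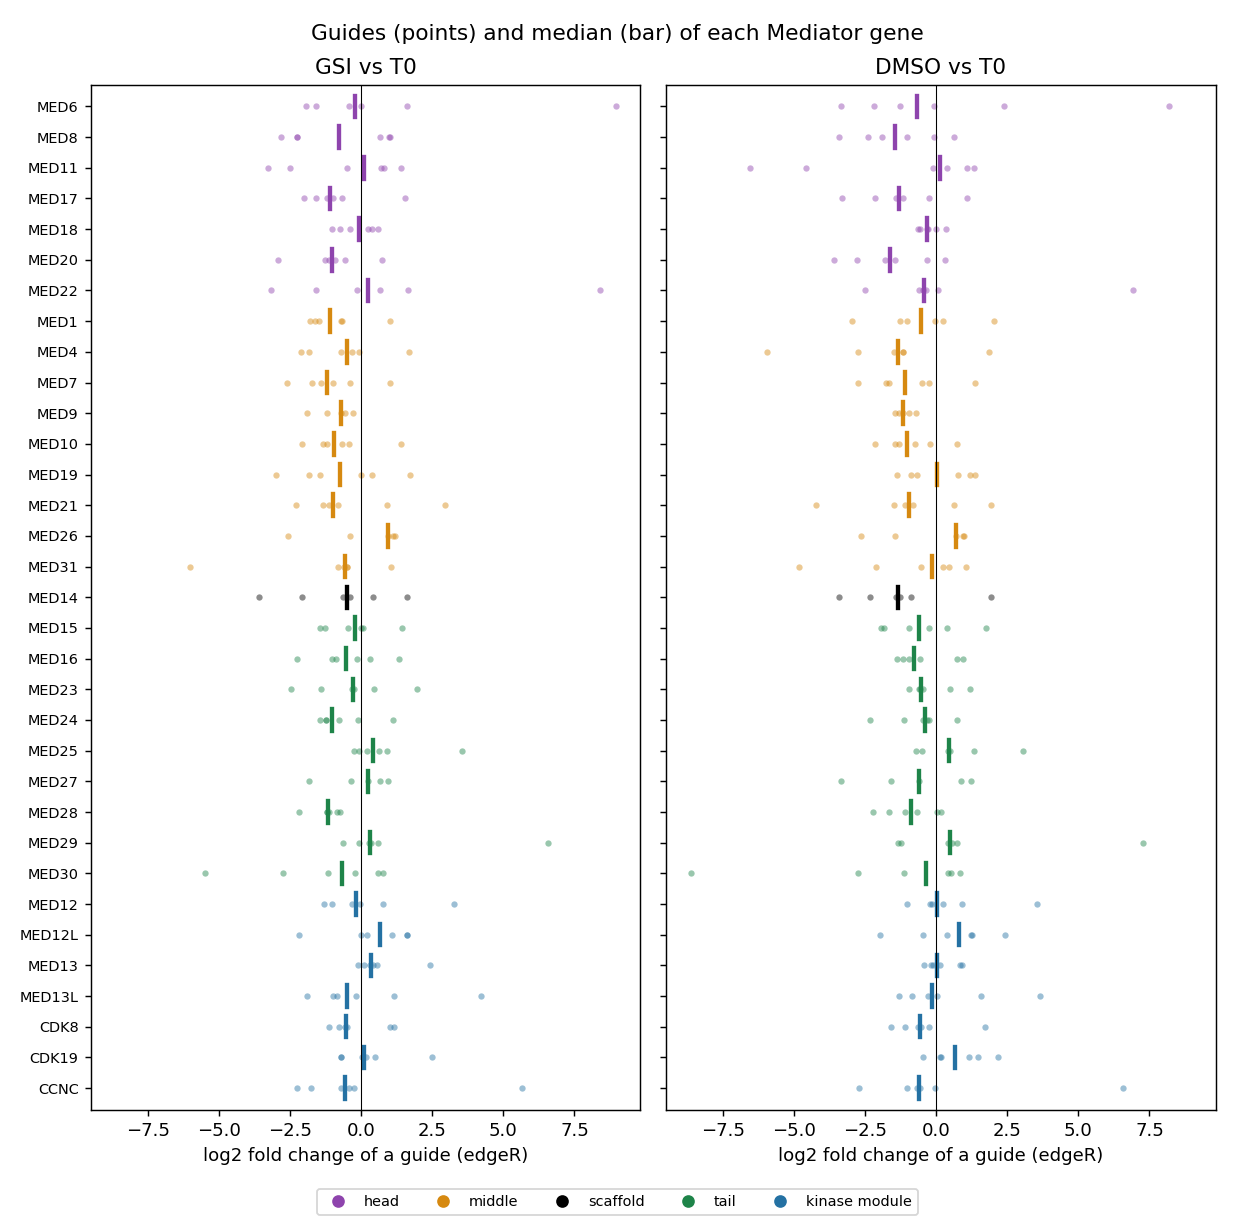
Log2 fold change (edgeR) of each tested sgRNA (points) and the median per gene (bars) for the 33 Mediator genes, with GSI against T0 on the left and DMSO against T0 on the right, coloured by module. Most bars of the head, middle and scaffold lie left of 0, MED26 lies right of it, and the bars of the kinase module fall on both sides.

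No single gene was called. Gene p-values came from robust rank aggregation of the one-sided sgRNA p-values, which asks whether the sgRNAs of a gene crowd at one end of the ranking, with Benjamini-Hochberg adjustment over 18570 genes and a threshold of 0.05. At that threshold 0.0323% of all genes were called lower in DMSO against T0, none of them a Mediator gene, and 0% in GSI against T0. The lowest adjusted p of a Mediator gene was 0.369 for MED20 in DMSO against T0 and 0.546 for MED28 in GSI against T0 (edgeR, then rank aggregation). Before adjustment, the low-side p was under 0.05 for 7 of 33 genes in DMSO against T0 (MED8, MED11, MED17, MED20, MED7, MED31 and MED28), which is 21.2% beside 6.12% of all genes. It was under 0.05 for 7 genes in GSI against T0 as well (MED11, MED17, MED20, MED1, MED10, MED31 and MED28), beside 5.69% of all genes. Leaving out DMSO replicate 3 raised the first count to 12, and leaving out GSI replicate 3 lowered the second to 4. The shares of all genes were not computed for these fits. The high-side p was under 0.05 for 0 Mediator genes in both comparisons, beside 5.3% of all genes in DMSO against T0 and 5.39% in GSI against T0.

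The mean normalized count of a gene over its sgRNAs was also compared library by library. After culture in DMSO, relative to T0, 12 of 33 genes had every DMSO library below both T0 libraries (36.4%, beside 17.1% of all genes), and 1 gene, MED26, had every DMSO library above them, beside 12.4%. For GSI against T0, 14 genes lay wholly below (42.4%, beside 19.2% of all genes) and MED26 again lay above, beside 11.4%. MED26 joins Mediator to elongation factors, and its mean normalized counts were 160.4 ± 24.2 in GSI, 134 ± 11.2 in DMSO (SD, n = 3 each) and 104 ± 7.22 at T0 (SD, n = 2). Its median log2 fold change was 0.92 in GSI against T0 and 0.68 in DMSO against T0, with high-side adjusted p-values of 0.983 and 0.992 (edgeR, then rank aggregation). In DMSO against T0, its sgRNAs stood at -2.65, -1.45, 0.68, 0.93 and 0.99, the last with a count of 0 in T0 replicate 2. Its median sgRNA level, as log2(normalized count + 1) relative to the T0 mean, was -0.61, -0.82 and -0.95 in DMSO. That level was -0.002, -0.46 and 0.04 in GSI, against -0.37 and 0.37 at T0. The rise of MED26 thus depended on the measure.

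The head module, which binds RNA polymerase II and helps recruit general factors, had 18 of its 42 sgRNAs (42.9%) under -1 in DMSO against T0, with a median log2 fold change of -0.53. After culture in GSI, relative to T0, 17 sgRNAs (40.5%) lay under -1 and the median was -0.55. Taken per library, the median level of its sgRNAs, as log2(normalized count + 1) relative to the T0 mean, was -0.75, -0.57 and -0.67 in GSI and -0.82, -1.18 and -1.32 in DMSO, against 0.29 and -0.29 in the T0 aliquots. All day 14 libraries thus lay below both aliquots, which themselves lay 0.57 apart. The gap of the head to all sgRNAs in DMSO against T0 was -0.53 with all libraries and -1.10 without T0 replicate 2, and in GSI against T0 it was -0.52 with all libraries and -0.33 without either aliquot in turn. By gene, the median log2 fold changes in DMSO against T0 were -0.69 for MED6, -1.48 for MED8, 0.13 for MED11, -1.30 for MED17, -0.32 for MED18, -1.64 for MED20 and -0.42 for MED22. In GSI against T0, they were -0.23 for MED6, -0.81 for MED8, 0.08 for MED11, -1.11 for MED17, -0.10 for MED18, -1.04 for MED20 and 0.25 for MED22.

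MED20, a head subunit that pairs with MED18, had the lowest p of the complex in DMSO against T0. The gene lies on chromosome 6 at 41905354 to 41921139, minus strand (GRCh38). Its mean normalized counts were 87.9, 66.9 and 39.1 in the GSI cultures and 59.9, 36.7 and 34.3 in the DMSO cultures, against 172 and 135 in the T0 aliquots. Every day 14 culture was below both aliquots, and the GSI and DMSO cultures overlapped. For DMSO against T0, its sgRNAs stood at -3.62, -2.81, -1.81, -1.47, -0.33 and 0.29 on the log2 scale, and in GSI against T0 at -2.93, -1.29, -1.15, -0.93, -0.58 and 0.73. The low values were thus spread over several sgRNAs. The median was -1.64 ± 1.47 in DMSO against T0 and -1.04 ± 1.18 in GSI against T0 (SD over 6 sgRNAs), with low-side p-values of 0.00414 and 0.0153 by edgeR and exact rank aggregation and adjusted p-values of 0.369 and 0.686. Over 14 other settings of the rank aggregation in DMSO against T0, fed by edgeR or DESeq2, its adjusted p was 0.193 or higher. When counts were summed per gene before an edgeR test, MED20 was the only Mediator gene called in DMSO against T0. This was 1 of 33 genes, beside 101 of 18570 over the whole table. Its log2 fold change by that edgeR test was -1.82, with an adjusted p of 0.0196. That call was lost without each DMSO culture in turn (edgeR adjusted p of 0.0522, 0.158 and 0.158), and in GSI against T0 the same test gave -1.25 with an adjusted p of 0.123. Without T0 replicate 1 the fold change was -1.63 in DMSO against T0 and -1.07 in GSI against T0. Without T0 replicate 2 it was -1.98 and -1.42. These fits leave 1 aliquot at T0, so only their fold changes are given.

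MED11, a small subunit that forms the joint of the head with MED22, showed another pattern, in which 2 sgRNAs held the low values. It lies on chromosome 17 at 4731428 to 4733608, plus strand. Mean normalized counts of the gene were 48.5, 49.6 and 70.6 in GSI and 56.2, 75.0 and 50.8 in DMSO, against 104 and 87.3 at T0. Both day 14 groups were below both aliquots. In DMSO against T0, its sgRNAs stood at -6.57, -4.58, -0.11, 0.36, 1.08 and 1.33, so that the median was 0.13 ± 3.32 while the low-side p was 0.0101 (edgeR, exact rank aggregation; adjusted p = 0.511). That median was not stable: it was -2.07 without DMSO replicate 2 and 0.62 without DMSO replicate 3, and it changed sign in 4 of 13 other settings. The sgRNA at -6.57 had normalized counts of 10.7 to 51.5 in GSI and of 8.17, 0 and 0 in DMSO, against 335 and 195 at T0.

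MED22 is the partner of MED11 and was among the 2 genes with the lowest p on the high side of GSI against DMSO. It lies on chromosome 9 at 133338312 to 133348131, minus strand. Its mean normalized counts were 43.9, 82.3 and 52.6 in GSI and 28.3, 43.9 and 32.2 in DMSO, against 79.7 and 30.2 at T0, and the GSI cultures did not fall below any DMSO culture, the lowest of GSI and the highest of DMSO lying close together. In GSI against DMSO, its sgRNAs stood at -0.99, -0.67, 0.23, 1.11, 1.46 and 1.55. The median was 0.67 ± 1.10 with a high-side p of 0.0243 and an adjusted p of 0.968 (edgeR, exact rank aggregation). After culture in DMSO, relative to T0, the sgRNAs of MED22 stood at -2.50, -0.62, -0.47, -0.38 and 0.07, and the remaining one had a count of 0 in both T0 aliquots, which makes it at least 15.0-fold higher in GSI when T0 is set to 3 counts per library. Its raw counts in DMSO were 2, 2 and 35, so that DMSO replicate 3 alone lay above that floor. A second head sgRNA, of MED6, was also at 0 in both aliquots and was at least 22.0-fold higher in GSI and at least 13.3-fold higher in DMSO, where its raw counts were 35, 5 and 56. The median of the head was -0.53 in DMSO against T0 with these sgRNAs at their bounds.

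The middle module, which forms the other contact with the polymerase and includes MED1, the docking subunit for nuclear receptors, had a lower median than the head when all libraries were used. For DMSO against T0, the median was -0.93 with 25 of 52 sgRNAs (48.1%) under -1, and in GSI against T0 it was -0.72 with 22 (42.3%) under -1. Per library, its level relative to T0 was -0.67, -0.85 and -0.74 in GSI and -0.76, -0.99 and -0.70 in DMSO, against -0.02 and 0.02 at T0. The T0 aliquots were close together here. Gene medians in DMSO against T0 were -0.53 for MED1, -1.34 for MED4, -1.10 for MED7, -1.19 for MED9, -1.04 for MED10, 0.03 for MED19, -0.97 for MED21, 0.68 for MED26 and -0.14 for MED31. For GSI against T0, they were -1.11 for MED1, -0.52 for MED4, -1.21 for MED7, -0.71 for MED9, -0.96 for MED10, -0.74 for MED19, -0.98 for MED21, 0.92 for MED26 and -0.57 for MED31. MED7, MED10, MED21 and MED31, which form the structural part of the middle, all had medians below 0 in both comparisons. The size of the shift rested on T0 replicate 2: without it the gap of the middle to all sgRNAs was -0.41 in DMSO against T0, beside -0.92 with all libraries, and -0.45 in GSI against T0, beside -0.69. The order of head and middle in DMSO against T0 turned round without that aliquot, with a gap of -1.10 for the head. It also turned round without DMSO replicate 2, with gaps of -0.89 for the head and -0.83 for the middle. By library level the head was also the lower one in DMSO, at a mean of -1.11 against -0.82 for the middle.

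MED1 lies on chromosome 17 at 39404285 to 39451272, minus strand. Mean normalized counts of the gene were 61.1, 51.1 and 50.9 in GSI and 93.6, 74.5 and 62.1 in DMSO, against 74.6 and 147 at T0. Every GSI culture was below every DMSO culture and below both aliquots, while DMSO overlapped T0. After culture in GSI, relative to T0, its sgRNAs stood at -1.81, -1.64, -1.49, -0.73, -0.69 and 1.02, giving a median of -1.11 ± 1.05, a low-side p of 0.0166 and an adjusted p of 0.686 (edgeR, exact rank aggregation). For GSI against DMSO, the median was -0.74 ± 0.89 with a low-side adjusted p of 0.988 (edgeR, rank aggregation), so that MED1 was not called although its libraries did not overlap.

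MED19, which links Mediator to several DNA-binding factors, was among the 2 genes with the lowest low-side p in GSI against DMSO. It lies on chromosome 11 at 57703710 to 57712221, minus strand. Its mean normalized counts were 52.5, 33.8 and 58.1 in GSI and 67.4, 69.7 and 71.3 in DMSO, against 70.8 and 79.0 at T0. The 3 GSI cultures were below all 5 other libraries. In GSI against DMSO, its sgRNAs stood at -2.30, -0.83, -0.79, -0.57, -0.45 and 0.35, with a median of -0.68 ± 0.87, a low-side p of 0.0478 and an adjusted p of 0.972 (edgeR, exact rank aggregation).

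MED14, the scaffold on which head, middle and tail assemble, lies on the X chromosome at 40648305 to 40735858, minus strand. Mean normalized counts of the gene were 38.9, 72.6 and 63.8 in GSI and 28.8, 45.6 and 43.5 in DMSO, against 131 and 83.1 at T0. All day 14 cultures were below both aliquots, and GSI and DMSO overlapped. In DMSO against T0, its sgRNAs stood at -3.45, -2.34, -1.44, -1.27, -0.89 and 1.92, with a median of -1.36 ± 1.80, a low-side p of 0.056 and an adjusted p of 0.837 (edgeR, exact rank aggregation). In GSI against T0, they stood at -3.61, -2.11, -0.63, -0.39, 0.42 and 1.59, with a median of -0.51 ± 1.85 and an adjusted p of 0.978, and without T0 replicate 1 that median was 0.03. For GSI against DMSO, the median was 0.24 ± 1.03, with a high-side p of 0.039 and an adjusted p of 0.968.

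**Figure D2:**
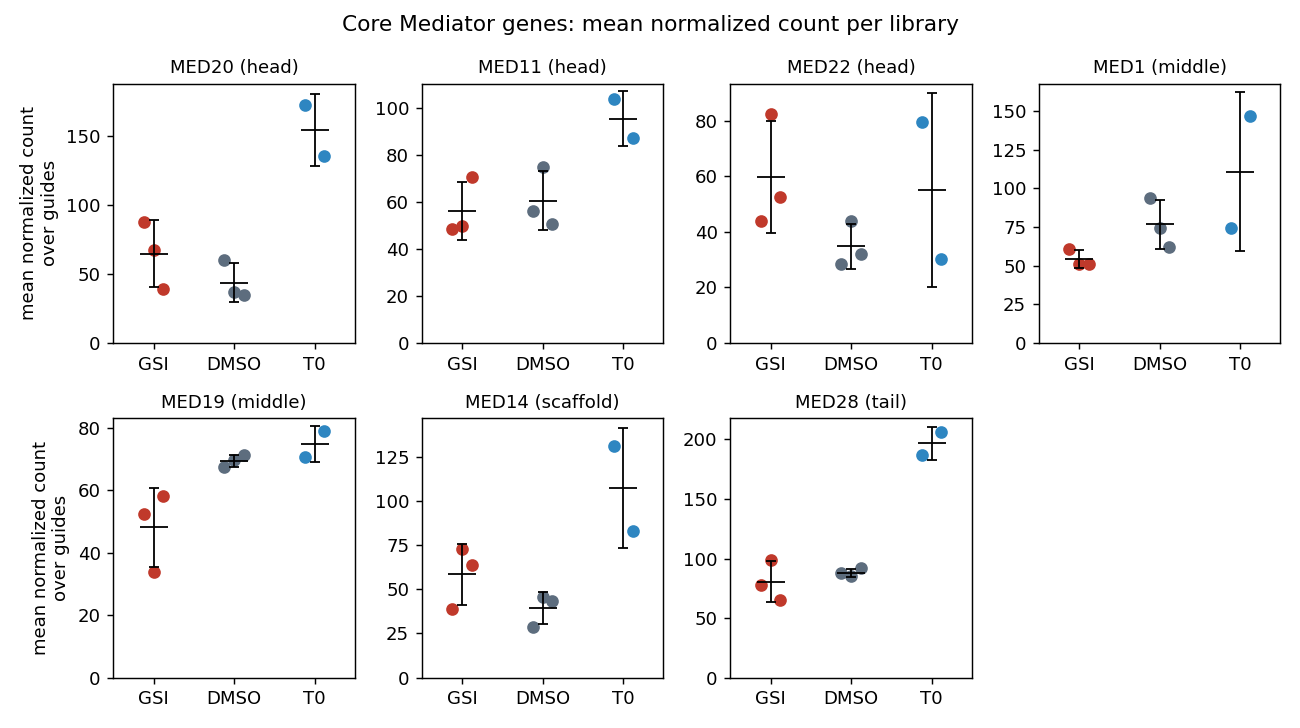
Mean normalized count over the sgRNAs of 7 genes of the head, middle, scaffold and tail in each library (points), with the mean and SD per group (bars), for GSI and DMSO (3 libraries each) and T0 (2 libraries). MED20, MED11, MED14 and MED28 have every day 14 library below both T0 libraries, and MED1 and MED19 have every GSI library below every DMSO library.

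The tail, the part that most activators touch, was intermediate. After culture in DMSO, relative to T0, its median was -0.49 with 16 of 53 sgRNAs (30.2%) under -1, and in GSI against T0 it was -0.27 with 17 (32.1%) under -1. Per library, its level relative to T0 was -0.33, -0.40 and -0.29 in GSI and -0.26, -0.43 and -0.59 in DMSO, against -0.22 and 0.22 at T0. The highest day 14 library thus lay only just under the lower T0 aliquot, and without T0 replicate 2 the gap of the tail to all sgRNAs in GSI against T0 was -0.05, beside -0.24 with all libraries and -0.63 without T0 replicate 1. Gene medians in DMSO against T0 were -0.61 for MED15, -0.77 for MED16, -0.53 for MED23, -0.40 for MED24, 0.44 for MED25, -0.63 for MED27, -0.89 for MED28, 0.47 for MED29 and -0.36 for MED30. For GSI against T0, they were -0.24 for MED15, -0.53 for MED16, -0.31 for MED23, -1.02 for MED24, 0.41 for MED25, 0.23 for MED27, -1.17 for MED28, 0.30 for MED29 and -0.70 for MED30. MED25, the target of viral and ETS-family activators, and MED29 lay above 0 in both comparisons. An sgRNA of MED30 was at 0 in all DMSO libraries, against raw counts of 5 and 97 in the T0 aliquots, so that it was clearly present in T0 replicate 2 alone.

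MED28, which lies where tail and head meet, was the lowest-ranked tail gene. It lies on chromosome 4 at 17614641 to 17634105, plus strand. Its mean normalized counts were 77.6, 99.0 and 65.2 in GSI and 87.7, 85.3 and 91.8 in DMSO, against 187 and 206 at T0. The day 14 cultures and the aliquots were far apart, and GSI and DMSO overlapped. After culture in GSI, relative to T0, all 6 sgRNAs were below 0, at -2.18, -1.22, -1.22, -1.13, -0.86 and -0.76, and in DMSO against T0 they stood at -2.23, -1.67, -1.11, -0.67, 0.02 and 0.17. The median was -1.17 ± 0.51 in GSI against T0 and -0.89 ± 0.94 in DMSO against T0, with low-side p-values of 0.00578 and 0.0129 (edgeR, exact rank aggregation) and adjusted p-values of 0.546 and 0.552. MED27, MED28, MED29 and MED30 are placed in the head or between head and tail in some structures. With these 4 genes and MED19 counted in the head, the head had a median of -0.59 and 29 of 71 sgRNAs (40.8%) under -1 in DMSO against T0, and the tail that remained had a median of -0.48 and 6 of 30 sgRNAs under -1, beside 17.8% of all sgRNAs. For GSI against T0, this head had a median of -0.51 with 28 of 71 sgRNAs (39.4%) under -1, and this tail had a median of -0.22 with 9 of 30 (30%), beside 16.1% of all.

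**Figure D3:**
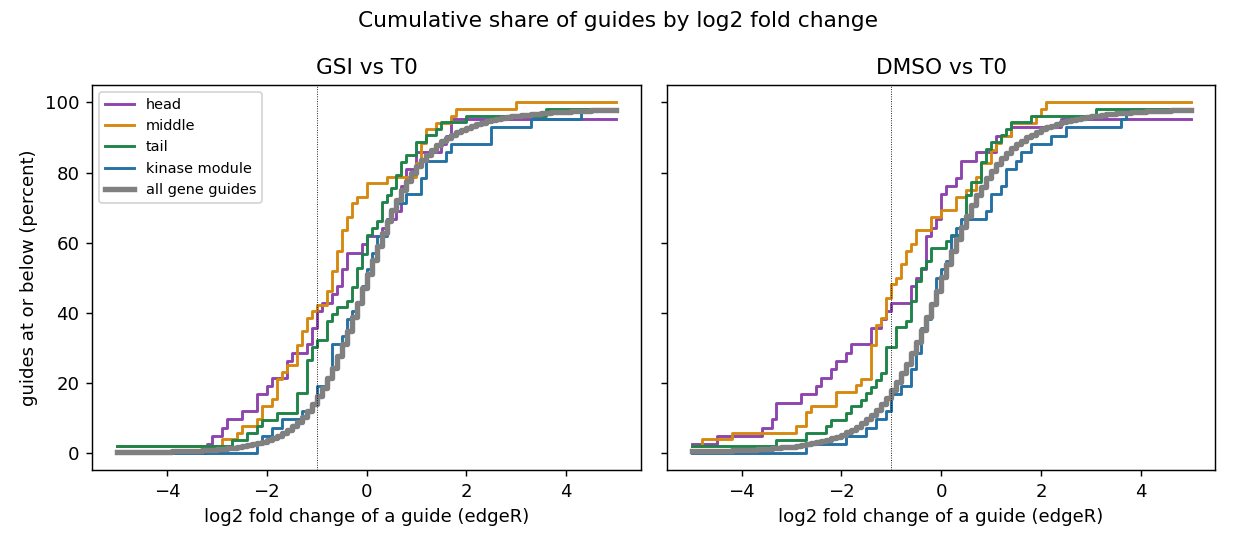
Share of sgRNAs (percent) at or below each log2 fold change (edgeR) for the head, middle, tail and kinase module and for all gene-targeting sgRNAs, with GSI against T0 on the left and DMSO against T0 on the right, the dotted line marking -1. At -1 in DMSO against T0 the curves stand at 48.1% for the middle, 42.9% for the head, 30.2% for the tail, 16.7% for the kinase module and 17.8% for all sgRNAs.

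By its median, the kinase module stood near the level of all sgRNAs. For DMSO against T0, its 42 sgRNAs had a median of -0.09 with 7 (16.7%) under -1 and 11 (26.2%) over 1, beside 17.8% and 19.5% of all sgRNAs. In GSI against T0, the median was -0.03 with 8 (19.05%) under -1 and 11 (26.2%) over 1, beside 16.1% and 18.2% of all sgRNAs. In DMSO against T0, 5 of its sgRNAs had an unadjusted edgeR p under 0.05 on the high side (11.9%, beside 4.21% of all). On the low side there were 2 (4.76%, beside 3.6%). The counts in GSI against T0 were 4 on the high side (9.52%, beside 4.72%) and 2 on the low side (4.76%, beside 4.11%). The other 26 genes had a median of -0.63 with 63 of 153 sgRNAs (41.2%) under -1 in DMSO against T0, and -0.58 with 58 (37.9%) in GSI against T0. Per library, the level of the kinase module relative to T0 was -0.04, 0.16 and 0.01 in GSI and -0.19, 0.31 and 0.07 in DMSO, against 0.15 and -0.15 at T0. Its libraries overlapped in all 3 groups. With each library left out in turn, the gap of the module to all sgRNAs ran from -0.21 (without T0 replicate 2) to 0.09 (without T0 replicate 1) in DMSO against T0, and from -0.22 (without GSI replicate 2) to 0.08 (without GSI replicate 3) in GSI against T0. None of its 7 genes had a rank aggregation p under 0.05 on either side against T0. Over all genes the share was 6.12% on the low side and 5.3% on the high side in DMSO against T0. In GSI against T0 it was 5.69% and 5.39%.

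**Figure D4:**
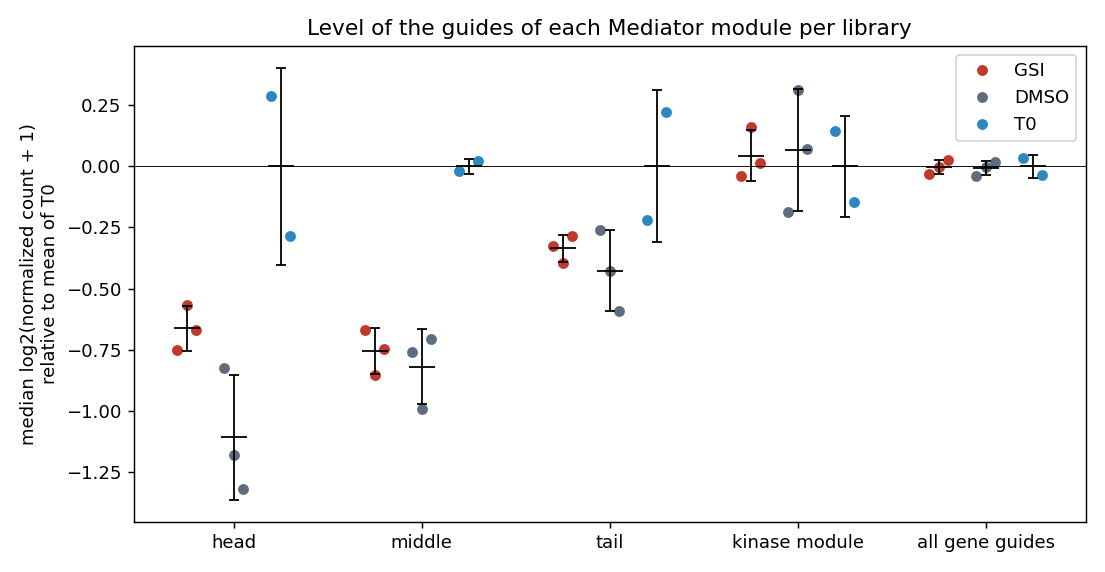
Median log2(normalized count + 1) of the sgRNAs of each module, set to 0 at the T0 mean, in each GSI, DMSO and T0 library (points), with the mean and SD per group (bars). The head and the middle lie below both T0 libraries in all 6 day 14 libraries, the tail lies just below, and the kinase module overlaps T0.

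MED12 and MED13, the subunits that activate the kinase and dock it to the core, had medians of either sign that turned on the T0 aliquots. MED12 lies on the X chromosome at 71118543 to 71144103, plus strand, and its mean normalized counts were 99.0, 121 and 92.6 in GSI and 114, 149 and 131 in DMSO, against 101 and 148 at T0. In DMSO against T0, its sgRNAs stood at -1.05, -0.22, -0.15, 0.22, 0.91 and 3.55, with a median of 0.03 ± 1.61, and in GSI against T0 the median was -0.19 ± 1.67. All 3 groups overlapped, and the medians of MED12 ran from -0.26 to 0.23 in DMSO against T0 and from -0.74 to 0.24 in GSI against T0 with each library left out, each time lowest without T0 replicate 1 and highest without T0 replicate 2. MED13 lies on chromosome 17 at 61942605 to 62065278, minus strand, and its counts were 191, 241 and 173 in GSI and 209, 160.4 and 181 in DMSO, against 220.2 and 117 at T0. Its sgRNAs stood at -0.44, -0.18, -0.10, 0.12, 0.82 and 0.91 in DMSO against T0, with a median of 0.01 ± 0.55, and the GSI against T0 median was 0.35 ± 0.93. Its groups overlapped, and its T0 aliquots lay far apart: without T0 replicate 1 its median was 1.69 in DMSO against T0 and 2.78 in GSI against T0, and without T0 replicate 2 it was -0.15 and -0.30.

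The paralogs MED12L and MED13L, which can take the places of MED12 and MED13, also overlapped between groups in most cases. MED12L lies on chromosome 3 at 151085286 to 151437072, plus strand, and its counts were 99.8, 132 and 149 in GSI and 115, 143 and 160.0 in DMSO, against 131 and 57.9 at T0. After culture in DMSO, relative to T0, its sgRNAs stood at -1.98, -0.48, 0.37, 1.22, 1.26 and 2.41, with a median of 0.79 ± 1.54, the highest of the complex, and a high-side adjusted p of 0.946 (edgeR, rank aggregation). The T0 aliquots lay far apart, and all 3 groups overlapped. MED13L lies on chromosome 12 at 115957905 to 116277693, minus strand, and its counts were 100.4, 78.9 and 78.7 in GSI and 133, 97.1 and 119 in DMSO, against 152 and 114 at T0. Its sgRNAs stood at -1.32, -0.85, -0.30, 0.02, 1.58 and 3.65 in DMSO against T0, with a median of -0.14 ± 1.85, and the median in GSI against T0 was -0.52 ± 2.192. The GSI cultures of MED13L lay below both aliquots, the DMSO cultures did not, and without T0 replicate 2 its medians were 0.77 in DMSO against T0 and 0.45 in GSI against T0.

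CDK8 and CDK19 are the alternative kinases of the module, and CCNC encodes cyclin C, which both need. CDK8 lies on chromosome 13 at 26254104 to 26420982, plus strand, and its counts were 169, 164 and 129 in GSI and 142, 167 and 156 in DMSO, against 221 and 155 at T0. Its sgRNAs stood at -1.59, -1.12, -0.64, -0.55, -0.24 and 1.72 in DMSO against T0, with a median of -0.59 ± 1.14, and at a median of -0.53 ± 0.97 in GSI against T0. All 3 groups overlapped, and without T0 replicate 1 these medians were 0.10 and 0.38. In GSI against DMSO, the median of CDK8 was 0.20 ± 0.83, with a high-side p of 0.0315 and an adjusted p of 0.968 (edgeR, exact rank aggregation).

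CDK19 had the lowest low-side p of the complex in GSI against DMSO. It lies on chromosome 6 at 110609978 to 110815958, minus strand, and its counts were 150.4, 165 and 93.8 in GSI and 223, 138 and 111 in DMSO, against 131 and 102 at T0. All 3 groups overlapped. For GSI against DMSO, its sgRNAs stood at -1.90, -1.32, -0.26, -0.14, 0.32 and 0.35, with a median of -0.20 ± 0.92, a low-side p of 0.0160 and an adjusted p of 0.963 (edgeR, exact rank aggregation). The low p went with 2 of 6 sgRNAs under -1. For DMSO against T0, the sgRNAs of CDK19 stood at -0.46, 0.13, 0.15, 1.16, 1.47 and 2.18, with a median of 0.66 ± 0.99, and in GSI against T0 the median was 0.08 ± 1.19.

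CCNC was the kinase module gene with every day 14 culture below both aliquots. It lies on chromosome 6 at 99542387 to 99568825, minus strand, and its counts were 56.1, 52.1 and 49.0 in GSI and 42.6, 70.3 and 48.8 in DMSO, against 74.5 and 114 at T0. In DMSO against T0, its sgRNAs stood at -2.74, -1.05, -0.68, -0.58, -0.07 and 6.56, with a median of -0.63 ± 3.23 and a low-side adjusted p of 1.00 (edgeR, rank aggregation). The sgRNA at 6.56 had normalized counts of 0 and 0.885 at T0, so that its fold rests on almost no reads there. For GSI against T0, the median of CCNC was -0.57 ± 2.87, with a low-side adjusted p of 0.994.

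**Figure D5:**
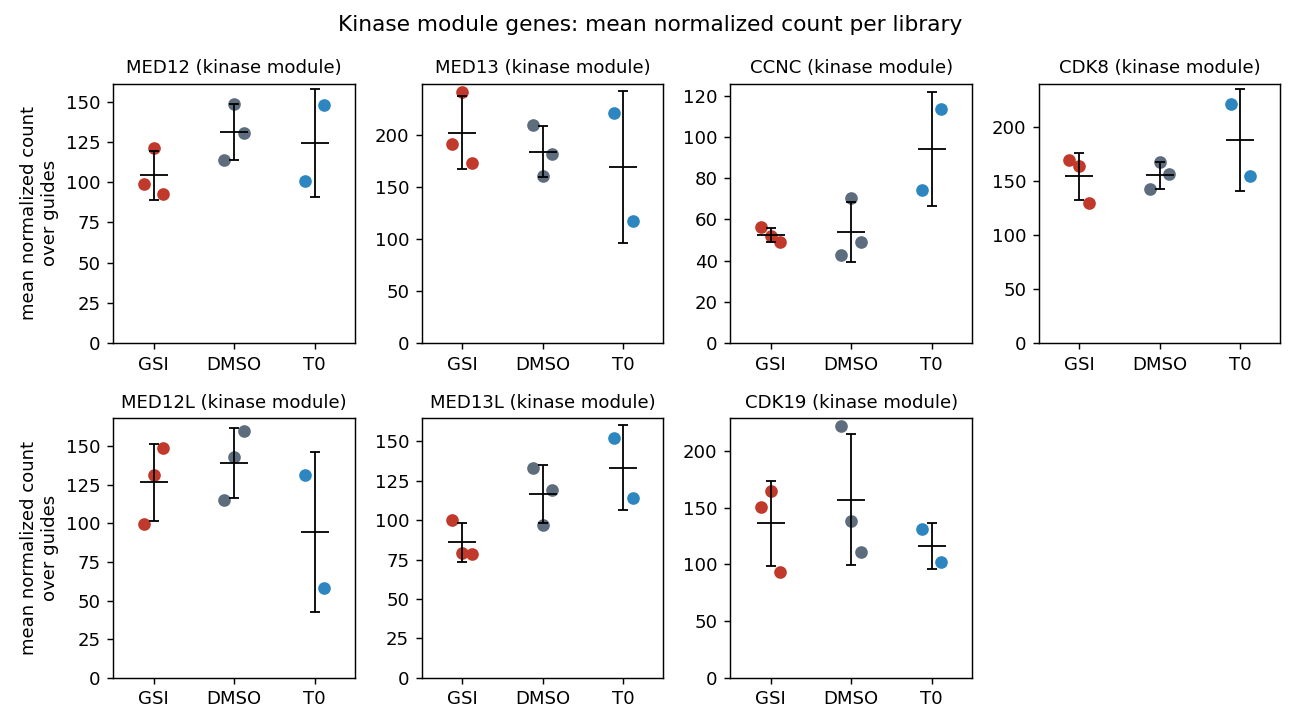
Mean normalized count over the sgRNAs of the 7 kinase module genes in each library (points), with the mean and SD per group (bars), for GSI and DMSO (3 libraries each) and T0 (2 libraries). CCNC has all 6 day 14 libraries below both T0 libraries, and MED12, MED13, MED12L, CDK8 and CDK19 overlap between all groups.

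Between the treatments, most medians of Mediator genes lay closer to 0 than against T0, and no gene was called. The whole table narrowed as well. Of all sgRNAs, 17.8% lay under -1 in DMSO against T0 and 16.1% in GSI against T0, but 5.53% in GSI against DMSO. In GSI against DMSO, the median over the 195 Mediator sgRNAs was 0.06, beside -0.02 over all sgRNAs. Of the 195, 12 (6.15%) lay under -1 and 26 (13.3%) over 1, beside 5.53% and 7.21% of all. With sgRNAs that stood at 0 in a whole group placed at their bounds, the median was 0.04. Below 0 lay 87 sgRNAs (44.6%, beside 51.4% of all) and the medians of 13 genes (39.4%, beside 52.7%), and 0 genes had a median under -1, beside 0.0539%. Single sgRNAs with an unadjusted edgeR p under 0.05 numbered 2 on the low side (1.03%, beside 1.49%) and 5 on the high side (2.56%, beside 1.55%). By module the medians were 0.35 for the head, 0.04 for the middle, 0.24 for MED14, 0.003 for the tail and -0.14 for the kinase module. In the head, 6 of 7 genes had a median above 0, with 0.17 for MED6, 0.50 for MED8, 0.32 for MED11, 0.47 for MED17, -0.02 for MED18, 0.60 for MED20 and 0.67 for MED22. Per library, the head stood at -0.66 ± 0.09 in GSI and -1.11 ± 0.26 in DMSO relative to T0 (SD, n = 3 each). Each GSI culture lay above each DMSO culture, the lowest of GSI at -0.75 and the highest of DMSO at -0.82. With MED19 and MED27 to MED30 counted in the head, its median in GSI against DMSO was 0.16. The treatments then overlapped, with GSI replicate 3 at -0.56 and DMSO replicate 1 at -0.43. The low-side p was under 0.05 for 2 genes (MED19 and CDK19), which is 6.06% beside 5.06% of all genes, and the high-side p for 4 genes (MED20, MED22, MED14 and CDK8), which is 12.1% beside 4.99%. The first count ran from 0 (without DMSO replicate 1) to 5 (without GSI replicate 1) with each library left out, and was 1 without DMSO replicate 2. The second fell to 2 without GSI replicate 3 or without DMSO replicate 1. For these fits, the shares of all genes were not computed. After adjustment 0 genes were called, beside 0% of all genes on either side. MED20 had a median of 0.60 ± 0.57 with its sgRNAs at -0.25, 0.43, 0.54, 0.66, 0.69 and 1.52, a high-side p of 0.0171 and an adjusted p of 0.963 (edgeR, exact rank aggregation). The groups did not overlap for 2 genes that were lower in GSI (MED1 and MED19), which is 6.06% beside 5.85% of all genes, and for 1 that was higher (MED22), beside 3.7%.

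The remaining medians in GSI against DMSO ran from -0.44 to 0.89. In the middle they were 0.89 for MED4, 0.01 for MED7, 0.26 for MED9, 0.14 for MED10, 0.16 for MED21, 0.12 for MED26 and -0.44 for MED31. In the tail they were 0.15 for MED15, -0.09 for MED16, 0.06 for MED23, -0.32 for MED24, 0.19 for MED25, 0.27 for MED27, -0.29 for MED28, -0.04 for MED29 and 0.02 for MED30. In the kinase module they were -0.21 for MED12, -0.17 for MED12L, 0.24 for MED13, -0.32 for MED13L and -0.02 for CCNC. MED4 had the largest median of the complex, and its libraries overlapped between the treatments.

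The genes of the machinery that Mediator works with differed by list. Of 58 partner genes, the 12 subunits of RNA polymerase II had a median sgRNA log2 fold change of -0.43 in DMSO against T0 and -0.44 in GSI against T0, the 31 general transcription factors had -0.38 and -0.39, and the 15 elongation and Mediator-linked factors had -0.01 and 0.01. The low-side p was under 0.05 for 11 of the 58 genes in DMSO against T0, which is 19% beside 6.12% of all genes and comprises 4 polymerase subunits and 7 general factors. The high-side p was under 0.05 for 4 partners (6.9%, beside 5.3% of all genes), namely 2 general factors and 2 elongation or Mediator-linked factors. For GSI against T0, the counts were 8 on the low side (13.8%, beside 5.69%) and 3 on the high side (5.17%, beside 5.39%), and no partner was called in either comparison. The 4 with the lowest low-side p in DMSO against T0 were GTF2B, TBP, TAF8 and POLR2F. GTF2B, which bridges TBP and the polymerase, stood at -2.06 (edgeR and rank aggregation, adjusted p = 0.224). TBP, the TATA-binding protein, stood at -1.58 (adjusted p = 0.298). TAF8, a subunit of TFIID, stood at -2.78 (adjusted p = 0.337), and POLR2F, a subunit shared by the nuclear polymerases, at -1.29 (adjusted p = 0.342). In GSI against T0, the partner with the lowest low-side p was GTF2H3, at -1.74 (edgeR and rank aggregation, adjusted p = 0.241). GTF2B had mean normalized counts of 68.0, 83.2 and 47.5 in GSI and 41.0, 98.5 and 102 in DMSO, against 139 and 163 at T0, all cultures below both aliquots. The order of these lists and the Mediator modules depended on the measure: in DMSO against T0 the sgRNA median was -0.53 for the head and -0.43 for RNA polymerase II, while the median of gene medians was -0.69 for the head and -0.76 for the polymerase, and 42.9% and 40.6% of their sgRNAs lay under -1. No difference between lists was tested.

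The sgRNAs of the GeCKOv2 library come in part A and part B, with 3 sgRNAs per gene in each. After culture in DMSO, relative to T0, the median of the Mediator sgRNAs was -0.48 in part A (97 sgRNAs) and -0.58 in part B (98 sgRNAs), beside -0.06 and 0.05 over all sgRNAs. After culture in GSI, relative to T0, it was -0.34 in part A and -0.70 in part B, beside -0.03 and -0.02. In GSI against DMSO, it was 0.14 in part A and -0.02 in part B, beside 0.03 and -0.08. The parts hold different sgRNAs against the same genes, counted in the same libraries. They are therefore given side by side and not as support for each other.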

How the data were processed

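sgRNA amplicons from genomic DNA were sequenced. Per the labels and the study's methods, the authors used bcl2fastq 2.19, FastQC 0.11.5 and MAGeCK 0.5.9.2, and deposited a table of raw counts per sgRNA, which was analysed here. A second deposited table, a normalized signal, equalled the raw count times 1 constant per library and was used only to check this. Guides with a mean raw count under 10 were left out (2609 of 119461). Guides were tested with edgeR 4.0.16 (limma 3.58.1, R 4.3.3) by the quasi-likelihood test with median-ratio size factors, each fit holding only the groups compared. Genes with at least 4 tested sgRNAs entered robust rank aggregation (alpha 0.25, exact p, each side apart). Each gene's log2 fold change was taken as the median over sgRNAs, with the SD over sgRNAs as error. The RRA was written anew and checked on simulated data. Module membership follows textbook structures, and positions are those of GENCODE (GRCh38). Guide sequences and their cut sites were not analysed here. The members, modules and partner list were chosen with earlier results of these data known. Every member is named with its median. Values per library and per sgRNA are given for the 3 members with the lowest low-side p in each comparison with T0. They are also given for the 2 of lowest p, high and low side, in GSI against DMSO, for MED14, and for the kinase module genes with their paralogs. Some are given for MED26. The 4 partners with the lowest low-side p in DMSO against T0 are named, and the 1 with the lowest in GSI against T0. Alternatives were other size factors, filters, DESeq2 1.42.0, summed counts, a joint fit, a replicate block and leaving out each library.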

Additional observations from a re-analysis of the deposited data

How the results depend on the processing

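By rank aggregation, 0 Mediator genes were called lower or higher in all 3 comparisons under every setting tried. Summing counts per gene called 1 lower in DMSO against T0 with all libraries, beside 101 of 18570 genes called in all, and that call moved with the library left out. In DMSO against T0 the Mediator median was -0.70 with size factors from non-targeting controls and -0.33 with a replicate block, and -0.60 to -0.28 with each library left out. In GSI against T0 it was -0.64 with library totals, -0.58 with controls, -0.38 with a mean count of at least 50, -0.28 as a mean over sgRNAs, -0.21 with the block and -0.45 to -0.22 with each library left out. In GSI against DMSO it was -0.18 with library totals, which moved the median of all sgRNAs to -0.22. Relative to all sgRNAs, the gap stayed between -0.58 and -0.42 in DMSO against T0 and between -0.47 and -0.29 in GSI against T0, the smallest without T0 replicate 2. The middle median in DMSO against T0 was -1.13 with controls, -0.74 at a mean count of at least 50 and -0.73 with the block. All sgRNAs stood at -0.21 there with controls and at 0.16 with the block. In GSI against T0 the middle median was -0.88 with totals, -0.86 with controls and -0.60 at 50. All sgRNAs stood at -0.16 there with totals and at -0.17 with controls. Over left-out libraries the middle median ranged from -1.004 to -0.32 in DMSO against T0 and from -0.88 to -0.39 in GSI against T0. In GSI against DMSO it was -0.18 with totals and -0.11 to 0.10 over left-out libraries, and the tail was -0.28 with totals. The head in DMSO against T0 ranged from -1.01 to -0.32, the lowest without T0 replicate 2. The tail in DMSO against T0 was -0.081 with the block, beside 0.16 over all sgRNAs. The kinase module was 0.32 in DMSO against T0 and 0.23 in GSI against T0 as a mean over sgRNAs, beside 0.13 and 0.15 over all sgRNAs. It was 0.31 in GSI against T0 with the block, beside 0.19 over all. Over left-out libraries its median ranged from -0.12 to 0.29 in DMSO against T0 and from -0.26 to 0.026 in GSI against T0.

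Counts of Mediator genes at a low-side p under 0.05 ranged from 5 to 12 in DMSO against T0 and from 4 to 9 in GSI against T0 over left-out libraries, and from 0 to 5 in GSI against DMSO, where a mean count of at least 50 gave 1. On the high side they ranged from 0 to 2 in both comparisons with T0, with 1 in GSI against T0 under DESeq2 and under the block, and from 2 to 4 in GSI against DMSO. Over the whole table, genes called in DMSO against T0 numbered 101 with summed counts, 0 at a mean count of at least 50, 3 in a joint fit and 0 to 7 with a library left out. In GSI against T0 they numbered 23 with summed counts, 10 with totals, 1 at 50, 2 with DESeq2, 1 in the joint fit and 0 to 1 with a library left out, and 0 to 1 in GSI against DMSO. Same-numbered GSI and DMSO cultures deviated together with correlations of 0.28, 0.06 and 0.12. Each was above those of differently numbered GSI and DMSO cultures, which ran from -0.16 to 0.05. The main tests did not use the numbers to pair the cultures, while the replicate block did. The cause of none of these shifts was tested. The share of all genes at a rank aggregation p under 0.05 was not computed for the alternative settings. Of 596 alternative fold changes of single members, 55 changed sign, none of a called gene. Precision is limited by 2 T0 aliquots that agree poorly and by 5 or 6 sgRNAs per gene.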
